A study of Mus musculus with 6 samples.

Results

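Neutrophil granule and granulocyte identity genes were followed in CD11b+Gr-1+ cells sorted from mouse liver after an injection of Con A (concanavalin A), the jack bean lectin used to set off T cell driven liver injury. The set held 35 named genes, and all 35 were measured among 19938 genes, each by 1 row of the value table that carried only that gene's symbol. The genes were grouped by the stage of granulocyte development at which they are best known, into 8 primary granule genes, 16 secondary granule genes, 2 tertiary granule genes and 9 genes of the mature granulocyte. All mice were C57BL/6 and carried established tumours of EL4, a mouse T cell lymphoma line. The control group received PBS (3 arrays) and the other group received Type IV Con A (3 arrays), and cells were taken 3 hours later. The labels give the dose as 12.5 mg/kg in one place and as 12.5 ug/kg in another, and this was not settled. The titles call the PBS arrays untreated and the cells myeloid-derived suppressor cells (MDSC). The labels state 3 mice per group but not that each array came from a separate mouse. The p-values therefore reflect only the scatter among these arrays, which may be technical.

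Neutrophils fill their granules in an order fixed by development. Promyelocytes make the primary (azurophil) granules with myeloperoxidase and the serine proteases, myelocytes and metamyelocytes make the secondary (specific) granules with lactoferrin, lipocalin 2 and cathelicidin, and later cells add the tertiary (gelatinase) granules. Transcripts of primary granule proteins are largely lost as the cell matures, while S100a8, S100a9 and Ly6g transcripts mark late cells. The gate used here takes cells with CD11b, encoded by Itgam, and the Gr-1 antigen, which includes the Ly6g protein of granulocytes and also reaches monocytic cells.

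The sorted cells carried strong granulocyte signal in both groups. Of the 35 genes, 24 lay above the 95th percentile of all genes by their PBS mean, and the median member stood at percentile 98.5. Itgam read 13.06, 12.94 and 12.76 on the PBS arrays and 12.80, 12.73 and 12.77 on the Con A arrays. Ly6g, the Gr-1 component of granulocytes, read 13.69, 13.57 and 13.51 after PBS and 13.57, 13.46 and 13.49 after Con A, with overlap between the groups. The highest value of any array lay between 14.2 and 14.3, so many of these genes sat near the top of the scale. Whether signals there were compressed was not tested, and a fold change there is that of the array signal. Levels are log2 values as deposited. They also depend on each gene's probes, so percentiles and level bands describe where a signal lay on the array scale and are no measure of transcript abundance between genes.

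At 3 hours after Con A, most secondary granule and late genes with a high array signal differed little. The test was passed by 4 of the 35 genes. The primary granule gene Ctsg rose, and the tertiary granule gene Mmp9 and the mature genes G0s2 and Padi4 fell. The median difference (Con A minus PBS) was 0.001 over the 35 genes and 0.02 over all genes. Differences were tested with limma over all 19938 genes, with Benjamini-Hochberg adjustment and a threshold of 0.05. Of all genes, 11.8% passed in either direction, 4.59% as higher and 7.22% as lower after Con A. The 4 calls of 35 are near that share of all genes. By PBS mean, 6.75% of all genes passed below 9, 26.5% from 9 to below 12 and 19.4% at 12 or more. Most members lay at 9 or more, where these larger shares apply. The groups did not overlap for 12 members, 5 with all Con A arrays above and 7 with all below, where 29.9% of all genes had no overlap. At an unadjusted p under 0.05 there were 12 members of 35, where 24.7% of all genes had such a p.

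**Figure D1:**
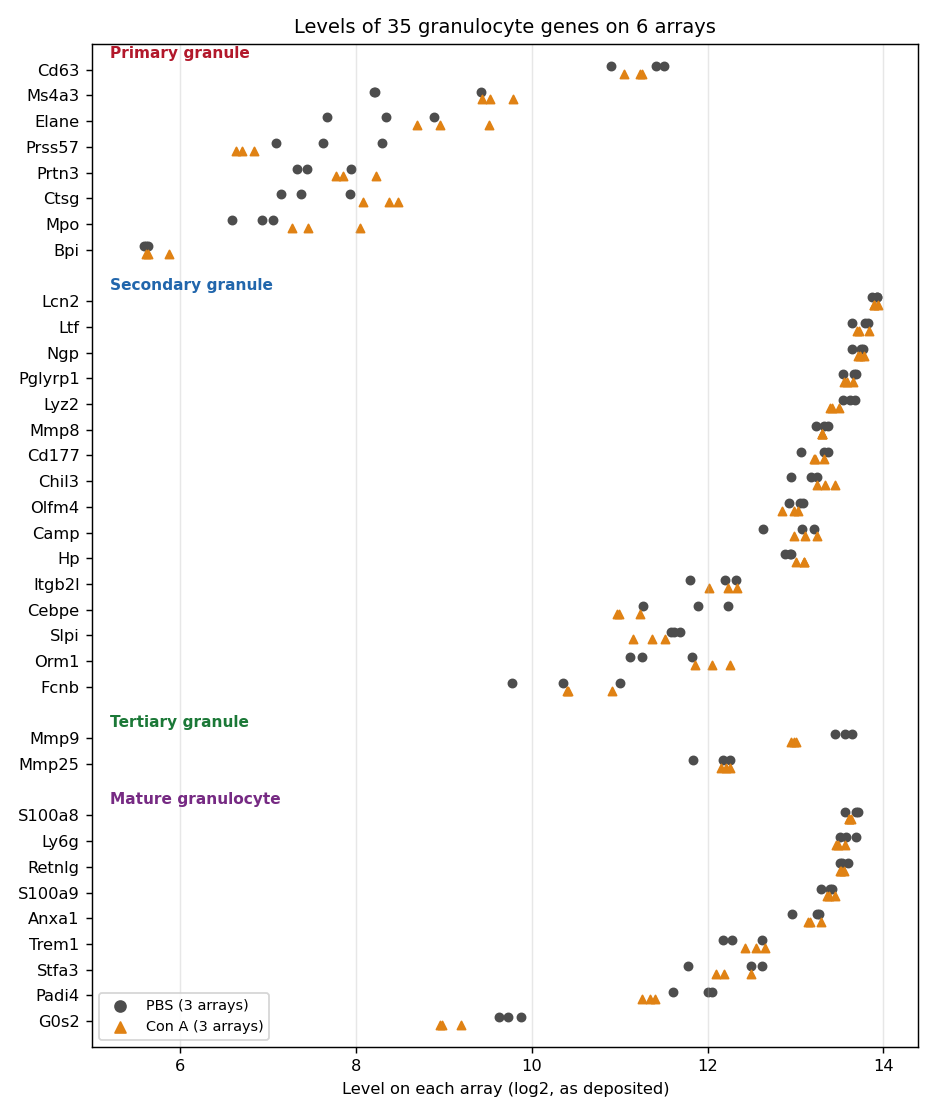
Log2 level of each of 35 granulocyte genes on each array (x axis), with genes grouped by stage on the y axis. Circles are the 3 PBS arrays and triangles the 3 Con A arrays. Most secondary granule and late genes lie above 12 with both groups overlapping, while 7 of 8 primary granule genes have PBS means below 9.

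Primary granule genes were dim in these cells, and their differences were among the widest of the set. Of 8 members, 1 rose and 0 fell, where 4.59% of all genes rose and 7.22% fell. Differences were positive for 6 and negative for 2, and the median difference was 0.56. Leaving out PBS replicate 1 gave a median of 0.351, and leaving out Con A replicate 1 gave 0.375. The promoters of several of these genes hold a short purine-rich sequence recognised by PU.1, the Ets-family factor of myeloid cells, and are shown here because this is the stage with the most matches. RefSeq promoters of build GRCm38.p6, running from 250 bases before to 50 bases after the start site, matched 30 of the 35 genes, and Cebpe, Prss57, Orm1, Mmp9 and Hp had no entry. The letters GAGGAAG, sought on both strands, occurred in the promoters of 6 of 7 primary granule genes (Mpo, Elane, Prtn3, Ctsg, Bpi and Cd63). They occurred in 5 of 13 secondary granule genes and 2 of 9 mature genes, in the 1 tertiary gene with an entry (Mmp25), and in 15.4% of all 27025 genes with a promoter. A match describes the letters and is neither a site nor a cause. The stretches below lie upstream of the start site and read 5′ to 3′ along the gene, with the match in capitals (CTTCCTC where it lies on the other strand).
Elane, chr10:79886212-79886311, plus strand: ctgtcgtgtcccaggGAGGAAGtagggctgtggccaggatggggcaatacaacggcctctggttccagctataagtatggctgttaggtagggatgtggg
Prtn3, chr10:79879567-79879666, plus strand: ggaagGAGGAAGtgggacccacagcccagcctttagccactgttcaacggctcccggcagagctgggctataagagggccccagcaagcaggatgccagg
Ctsg, chr14:56102725-56102824, minus strand: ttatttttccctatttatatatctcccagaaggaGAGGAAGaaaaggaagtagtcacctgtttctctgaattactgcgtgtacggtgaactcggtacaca
Mpo, chr11:87793534-87793633, plus strand: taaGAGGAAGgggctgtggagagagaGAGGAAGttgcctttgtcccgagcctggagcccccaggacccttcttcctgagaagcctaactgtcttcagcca
Bpi, chr2:158258141-158258240, plus strand: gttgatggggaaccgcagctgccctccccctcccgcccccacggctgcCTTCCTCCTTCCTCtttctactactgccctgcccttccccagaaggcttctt

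Ctsg, which encodes the azurophil serine protease cathepsin G, read 7.15, 7.94 and 7.38 on the PBS arrays and 8.48, 8.08 and 8.38 on the Con A arrays. All 3 Con A values lay above all 3 PBS values, though Con A replicate 2 stood only just above PBS replicate 2. Ctsg rose 1.77-fold, by 0.83 on the log2 scale (95% interval 0.35 to 1.30, limma adjusted p = 0.0407). The call was held in only 1 of 6 fits that left out 1 array, with adjusted p = 0.129 without PBS replicate 1, 0.069 without PBS replicate 3 and 0.121, 0.0715 and 0.121 without Con A replicates 1, 2 and 3. With each array centred on its median the adjusted p was 0.0533.

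Elane, Prtn3 and Mpo did not pass. Elane, which encodes neutrophil elastase, read 7.68, 8.89 and 8.34 after PBS and 9.51, 8.70 and 8.96 after Con A, so PBS replicate 2 overlapped the Con A arrays. Its difference was 0.76 (95% interval 0.015 to 1.497, limma adjusted p = 0.194), and the fits lacking PBS replicates 1 and 2 gave 0.444 and 1.049. Prtn3, which encodes proteinase 3 and is the next protein-coding gene to Elane on chromosome 10, read 7.33, 7.94 and 7.44 against 8.23, 7.86 and 7.77. It differed by 0.38 (95% interval -0.05 to 0.81), again with PBS replicate 2 inside the Con A range, and leaving out Con A replicate 1 gave 0.243, the lowest value with 1 array left out, against a highest value of 0.567 when PBS replicate 2 was left out. Mpo, which encodes myeloperoxidase, read 6.59, 7.05 and 6.94 after PBS and 8.04, 7.28 and 7.46 after Con A. The groups of Mpo did not overlap, and the difference was 0.73 (95% interval 0.25 to 1.22, limma adjusted p = 0.0653).

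Ms4a3, a tetraspan membrane gene of granulocyte-monocyte progenitors, read 8.22, 9.42 and 8.20 after PBS and 9.79, 9.43 and 9.52 after Con A. PBS replicate 2 came within 0.01 of the lowest Con A array, and the other PBS arrays lay more than 1 unit lower. The difference was 0.96 (95% interval 0.23 to 1.69, limma adjusted p = 0.10), and without PBS replicate 2 it was 1.37 with an adjusted p of 0.00333. Ms4a3 passed only in that 1 of 6 fits with 1 array left out, and the others gave limma adjusted p from 0.181 to 0.271. Prss57, a serine protease gene separated from Prtn3 by 4 protein-coding genes on the same chromosome, ran the other way. It read 7.63, 8.29 and 7.095 after PBS and 6.84, 6.64 and 6.70 after Con A, with no overlap. Its difference was -0.95 (95% interval -1.57 to -0.33, limma adjusted p = 0.0633). Without PBS replicate 3, the PBS array nearest to the Con A arrays, the limma adjusted p of Prss57 was 0.00483. Prss57 passed only in that 1 of 6 fits with 1 array left out, and the others gave 0.0632 to 0.199. Bpi, which encodes the bactericidal/permeability-increasing protein, stood at percentile 16.9 of all genes by its PBS mean (5.61 ± 0.02, SD, n = 3) and at 5.71 ± 0.15 after Con A. No detection call came with the values, so a reading this low does not show that Bpi was expressed. Cd63, a tetraspanin of azurophil granule membranes and of lysosomes in many cells, differed by -0.10 (95% interval -0.47 to 0.28).

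**Figure D2:**
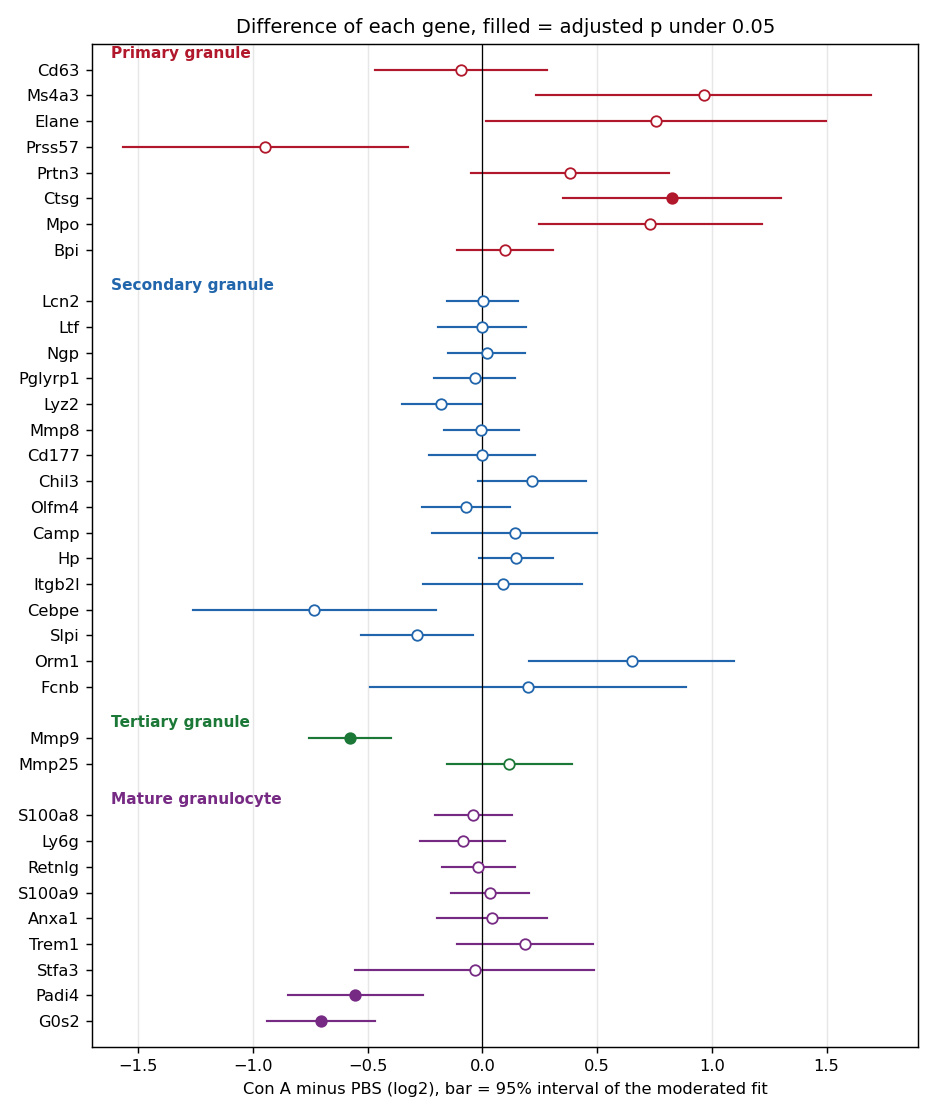
Difference of each gene between Con A and PBS on the log2 scale (x axis) with the 95% interval of the moderated fit, by stage. Filled points passed at an adjusted p under 0.05: Ctsg above 0, and Mmp9, Padi4 and G0s2 below 0.

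The PBS arrays differed among themselves for the primary granule genes. The median of the 8 genes lay 0.26 below the PBS mean in PBS replicate 1, 0.41 above it in PBS replicate 2 and 0.12 below it in PBS replicate 3. It lay 0.83, 0.34 and 0.40 above the PBS mean in Con A replicates 1, 2 and 3, so PBS replicate 2 stood within the Con A range. PBS replicate 2 was the highest PBS array for 6 of the 8 genes, where 30.2% of all genes had that array highest. The SD of Ms4a3, Elane and Prss57 over the PBS arrays lay at percentiles 99.1, 98.7 and 98.6 of all genes.

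The median of a list of proliferating precursor markers, most of them cell cycle genes, moved across the arrays alongside the primary granule genes. Of 14 measured markers out of 15, including the cell cycle genes Mki67 and Top2a, 13 had positive differences, and the median was 0.69. Their median relative to the PBS mean was -0.16, 0.49 and -0.29 in PBS replicates 1, 2 and 3 and 0.93, 0.70 and 0.40 in Con A replicates 1, 2 and 3. The mean level of the list ran from 9.33 to 9.99 after PBS and from 10.01 to 10.39 after Con A. Of these markers 1 passed, where 11.8% of all genes did. That was Kit, the stem cell factor receptor, which rose by 1.43 (limma adjusted p = 0.00176). Among the PBS arrays Kit was highest in replicate 3, at 7.48 against 6.91 and 7.03 in replicates 1 and 2. Kit is also a basophil and mast cell gene. Cd34, which like Kit is no cell cycle gene, had the 1 negative difference of the list (-0.18, limma adjusted p = 0.371). Among the PBS arrays Cd34 was lowest in replicate 2, at 6.22 against 6.48 and 6.40 in replicates 1 and 3. The pattern of the list is therefore that of its cell cycle genes. Without PBS replicate 2, the PBS array with the highest median of this list, 12 of the 14 passed as higher. In each of the other fits with 1 array left out, 1 of the 14 passed. The part of these markers in the primary granule values was not tested. In bulk arrays, a change in the share of cells of a type and a change in RNA per cell cannot be told apart.

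**Figure D3:**
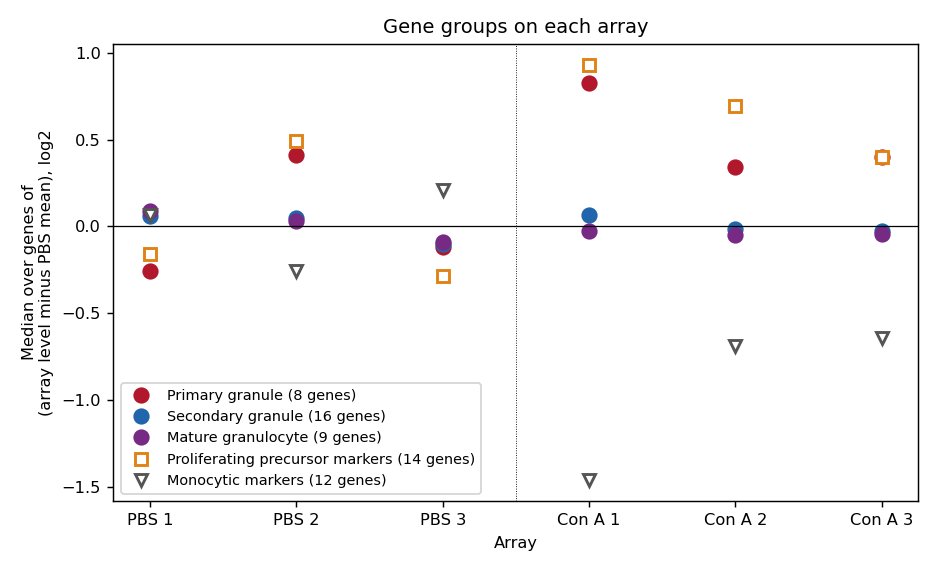
Median over the genes of each group of the array's level minus the PBS mean (y axis, log2) on each of the 6 arrays (x axis). Primary granule genes and proliferating precursor markers are both high in PBS replicate 2 and on the 3 Con A arrays, monocytic markers are low on all 3 Con A arrays, and secondary granule and mature genes stay near 0.

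Secondary granule genes had a median difference of 0.000. They gave 0 calls of 16 in either direction by limma, where 11.8% of all genes passed. All 16 had PBS means above 10, and 26.5% of all genes from 9 to below 12 and 19.4% at 12 or more passed. At an unadjusted p under 0.05 they gave 4 of 16, against 24.7% of all genes. Of the 13 with a promoter entry, 6 (Fcnb, Lcn2, Slpi, Mmp8, Ngp and Ltf) hold the letters TTGCNNAA on either strand, where N is any base, a core recognised by the C/EBP factors that drive this stage. The share was 4 of 9 in mature genes and 1 of 7 in primary granule genes, the 1 tertiary gene with an entry lacks it, and 12.2% of all genes with a promoter hold it. The stretches below show 5 of these, upstream of the start site, with the match in capitals (on either strand).
Ngp, chr9:110419658-110419807, plus strand: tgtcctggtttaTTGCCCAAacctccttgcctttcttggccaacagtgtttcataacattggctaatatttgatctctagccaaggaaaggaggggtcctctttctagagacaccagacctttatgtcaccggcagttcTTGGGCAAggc
Ltf, chr9:111019192-111019291, plus strand: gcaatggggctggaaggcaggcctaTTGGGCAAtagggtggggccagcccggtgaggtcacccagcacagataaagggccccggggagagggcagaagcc
Mmp8, chr9:7558329-7558428, plus strand: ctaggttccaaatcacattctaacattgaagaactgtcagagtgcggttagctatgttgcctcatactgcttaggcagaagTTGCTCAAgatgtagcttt
Fcnb, chr2:28084979-28085128, minus strand: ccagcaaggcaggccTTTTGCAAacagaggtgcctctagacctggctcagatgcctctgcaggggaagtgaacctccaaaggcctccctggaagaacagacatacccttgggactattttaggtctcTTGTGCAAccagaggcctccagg
Lcn2, chr2:32387890-32387989, minus strand: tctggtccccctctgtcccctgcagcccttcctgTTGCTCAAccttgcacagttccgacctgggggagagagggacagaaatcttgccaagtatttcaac

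Ltf, which encodes the iron-binding protein lactoferrin, read 13.80, 13.82 and 13.65 after PBS and 13.84, 13.73 and 13.70 after Con A. Camp, which encodes the cathelicidin antimicrobial precursor, read 13.07, 13.21 and 12.63 against 13.25, 12.98 and 13.11. The groups of both genes overlapped, and the differences were -0.003 (95% interval -0.19 to 0.19) and 0.14 (95% interval -0.22 to 0.50). Lcn2 (lipocalin 2, which binds bacterial siderophores), Ngp (neutrophilic granule protein), Mmp8 (neutrophil collagenase), Cd177 (a surface partner of proteinase 3), Pglyrp1 (a peptidoglycan-binding protein) and Olfm4 (olfactomedin 4) differed by between -0.07 and 0.02. The widest 95% interval among these 6 was that of Cd177, -0.23 to 0.23. All 6 had PBS means above 13.

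Chil3 (the chitinase-like protein Ym1) and Itgb2l (an integrin beta-2-like chain) differed by 0.22 (95% interval -0.02 to 0.45) and 0.09 (95% interval -0.26 to 0.44). Fcnb, a ficolin that recognises microbial sugars, read 10.36, 11.003 and 9.78 after PBS and 10.92, 10.40 and 10.41 after Con A. The PBS arrays of Fcnb spanned 1.23 units, a wider range than the Con A arrays, and enclosed all 3 of them. Slpi, a secreted inhibitor of leukocyte proteases, read 11.69, 11.62 and 11.59 after PBS and 11.15, 11.37 and 11.52 after Con A. The groups of Slpi did not overlap, and its difference was -0.29 (95% interval -0.53 to -0.04, limma adjusted p = 0.138). Lyz2, lysozyme of myeloid cells, also had all Con A arrays below PBS, with a difference of -0.18 (limma adjusted p = 0.185).

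Orm1 and Hp, which encode the acute-phase proteins orosomucoid 1 and haptoglobin, are made by hepatocytes as well as by granulocyte precursors. Orm1 read 11.26, 11.83 and 11.12 after PBS and 12.25, 11.85 and 12.05 after Con A, with no overlap but with PBS replicate 2 just under Con A replicate 2. Its difference was 0.65 (95% interval 0.21 to 1.10, limma adjusted p = 0.0729), and without PBS replicate 2 it was 0.86 with an adjusted p of 0.0125. Orm1 passed only in that 1 of 6 fits with 1 array left out, and the others gave limma adjusted p from 0.116 to 0.218. Hp read 12.95, 12.88 and 12.93 after PBS and 13.09, 13.10 and 13.01 after Con A, a difference of 0.15 (limma adjusted p = 0.253). Hepatocyte markers had 0 of 12 measured members past the test by limma (1 at an unadjusted p under 0.05), and their mean level ran from 6.55 to 6.62 after PBS and from 6.62 to 7.41 after Con A. The largest differences there were 0.86 for Alb and 0.52 for Fgb, which were 0.152 and 0.015 without Con A replicate 2. Alb, the albumin gene, was highest in Con A replicate 2, at 11.17 against 9.01 and 9.10 in Con A replicates 1 and 3. Among the Con A arrays, that array was the lowest for Orm1 and, by a narrow margin, the highest for Hp. Any hepatocyte part in the Orm1 and Hp values was not tested. The related genes Orm2 and Orm3 differed by -0.01 and -0.10 and did not pass. Probes of such close copies may share signal.

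Cebpe, the C/EBP family member that drives the secondary granule programme, read 11.89, 12.23 and 11.27 after PBS and 11.23, 10.997 and 10.97 after Con A. The groups did not overlap, but PBS replicate 3 lay just above Con A replicate 1. Its difference was -0.73 (95% interval -1.26 to -0.20, limma adjusted p = 0.0865), and without PBS replicate 3 it was -0.997 with an adjusted p of 0.00302. Cebpe passed only in that 1 of 6 fits with 1 array left out, and the others gave limma adjusted p from 0.126 to 0.242. Other C/EBP genes passed in opposite directions, and Cebpg was added to them after its values were seen. Cebpa, which acts at the entry into the granulocyte line, fell by 1.07, from 9.61 ± 0.14 to 8.55 ± 0.14 (SD, n = 3 each; limma adjusted p = 0.0015). Cebpd fell by 0.91 (limma adjusted p = 0.000933). Cebpb, which supports emergency granulopoiesis, rose by 0.56 (limma adjusted p = 0.0245), and Cebpg rose by 0.43 (limma adjusted p = 0.0139). The call of Cebpb ended in 4 of 6 fits with 1 array left out (without PBS replicate 1 or 2, or Con A replicate 2 or 3, at adjusted p up to 0.0975). That of Cebpg ended in 3 (without PBS replicate 2, or Con A replicate 1 or 2, at adjusted p up to 0.0577).

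The tertiary granule pair differed from each other. Mmp9, which encodes gelatinase B, read 13.65, 13.57 and 13.46 after PBS and 12.98, 13.01 and 12.95 after Con A. The groups of Mmp9 were well apart, with the lowest PBS array 0.45 above the highest Con A array. Mmp9 fell by 0.58 on the log2 scale (95% interval -0.76 to -0.40, 1.49-fold lower, limma adjusted p = 0.00401), and it passed in all 14 alternatives run for it. Mmp25, a membrane-anchored metalloprotease of leukocytes, read 12.26, 12.18 and 11.83 against 12.25, 12.16 and 12.21, and its difference was 0.12 (95% interval -0.16 to 0.39).

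Among the 9 genes of the mature granulocyte, 2 fell and 0 rose, where 7.22% of all genes fell and 4.59% rose. The median difference was -0.03. G0s2, an inhibitor of the lipase ATGL in lipid droplets, read 9.88, 9.73 and 9.63 after PBS and 8.95, 8.98 and 9.20 after Con A. The groups of G0s2 did not overlap, and it fell by 0.71 (95% interval -0.94 to -0.47, 1.63-fold lower, limma adjusted p = 0.00515). It passed in all 6 fits that left out 1 array and missed with the unmoderated test (adjusted p = 0.0587). Padi4, the peptidyl arginine deiminase that citrullinates histones when neutrophils release extracellular traps, read 12.01, 12.05 and 11.61 after PBS and 11.40, 11.34 and 11.26 after Con A. All Con A arrays lay below all PBS arrays, with PBS replicate 3 nearest to them. Padi4 fell by 0.55 (95% interval -0.85 to -0.26, 1.47-fold lower, limma adjusted p = 0.0299). That call was held in only 1 of 6 fits with 1 array left out, without PBS replicate 3. The others gave adjusted p = 0.117 and 0.0856 without PBS replicates 1 and 2 and 0.066, 0.101 and 0.102 without Con A replicates 1, 2 and 3. The 300 bases around the Padi4 start site hold neither GAGGAAG nor TTGCNNAA, which 15.4% and 12.2% of all genes with a promoter hold. The mature genes G0s2, Trem1 and Stfa3 also lack both. The Padi4 stretch next to the start site is shown with nothing in capitals, and any link to its values was not tested.
Padi4, chr4:140774204-140774303, minus strand: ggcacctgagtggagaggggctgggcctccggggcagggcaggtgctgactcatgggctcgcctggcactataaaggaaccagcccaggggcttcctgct

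S100a8 and S100a9 encode the subunits of calprotectin, a calcium- and zinc-binding complex that fills the neutrophil cytosol, and they are neighbours on chromosome 3. S100a8 read 13.71, 13.69 and 13.57 after PBS and 13.63, 13.61 and 13.61 after Con A. S100a9 read 13.40, 13.42 and 13.29 against 13.36, 13.45 and 13.39. The groups of both genes overlapped, with differences of -0.04 (95% interval -0.21 to 0.13) and 0.03 (95% interval -0.14 to 0.20). Retnlg (a resistin-like peptide gene), Anxa1 (annexin A1, which limits neutrophil recruitment), Stfa3 (a stefin inhibitor of cysteine proteases) and Ly6g differed by between -0.09 and 0.04, and none passed. The widest 95% interval among these was that of Stfa3, -0.55 to 0.49, so its small difference does not show that Stfa3 was steady. Trem1, a receptor that amplifies inflammatory signalling, read 12.28, 12.18 and 12.62 after PBS and 12.43, 12.55 and 12.65 after Con A, a difference of 0.19 (95% interval -0.11 to 0.48). Stfa3 and the related Stfa2 may share probe signal, and Stfa2 differed by -0.07.

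PBS replicate 3 stood apart within its group for most of the set. It was the lowest PBS array for 27 of the 35 genes, including 14 of 16 secondary granule genes and 8 of 9 mature genes, where it was lowest for 41% of all genes. The array weights of limma were lowest for this array, at 0.53, against 0.82 to 1.31 for the others. Without PBS replicate 3, 5 members fell (Prss57 and Cebpe joined Mmp9, G0s2 and Padi4) and 0 rose. Con A replicate 1 was the highest Con A array for 27 of the 35 genes, where it was highest for 34% of all genes. Monocytic markers ran the other way on these arrays. Relative to the PBS mean, their median was -1.46 on Con A replicate 1 and 0.21 on PBS replicate 3.

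By level, 21 members had a PBS mean of 12 or more, 7 lay from 9 to below 12 and 7 lay below 9. The median absolute difference was 0.04 in the top band (1 of 21 passed), 0.55 in the middle band (2 of 7) and 0.76 in the lowest band (1 of 7). Over all genes the same bands had medians of 0.14, 0.22 and 0.10, and 19.4%, 26.5% and 6.75% of genes passed. The lowest band held primary granule genes only, so level and stage cannot be told apart there. Among secondary granule genes, the 12 at 12 or more differed by at most 0.217 in either direction. The other 4 (Orm1, Slpi, Fcnb and Cebpe) differed by 0.199 to 0.732 in either direction.

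**Figure D4:**
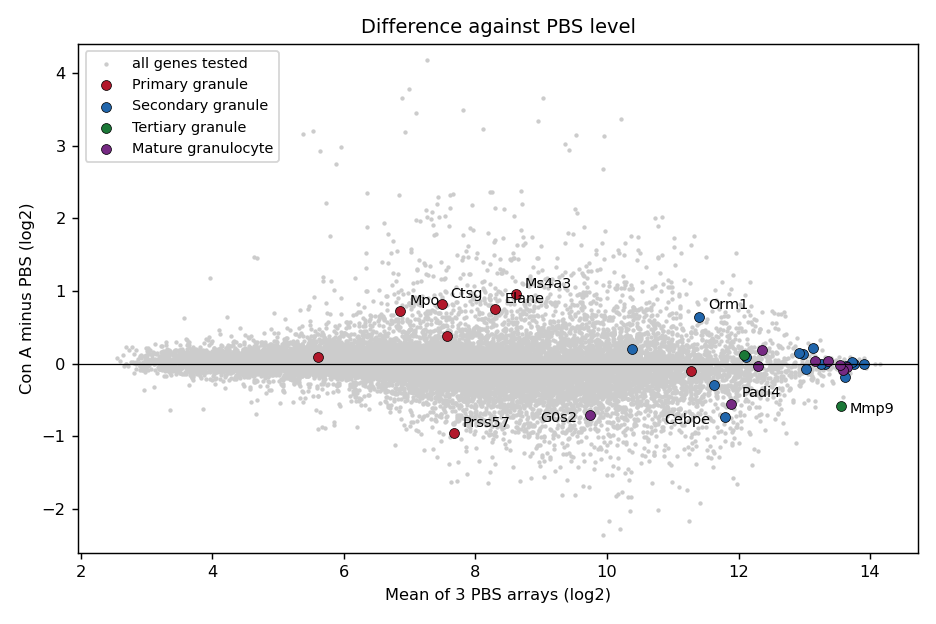
Con A minus PBS difference (y axis, log2) against the mean of the 3 PBS arrays (x axis, log2) for all 19938 genes in grey and the 35 granulocyte genes in colour by stage. The 21 members at 12 or more lie close to 0 apart from Mmp9, and members with a difference of 0.5 or more are named.

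Other genes of the granulocyte were taken from 4 further lists. Their counts stand beside 4.59% of all genes that rose and 7.22% that fell. Among all genes with a PBS mean from 9 to below 12, 26.5% passed, and 19.4% did at 12 or more. Of 15 granulopoietic factors, 3 rose (Irf8, Cebpb and Mxd1) and 2 fell (Cebpa and Cebpd), with a median difference of -0.18 (-0.116 when Con A replicate 1 was left out, -0.084 when PBS replicate 2 was). Irf8, which favours the monocytic over the granulocytic line and responds to interferon-gamma, rose by 0.99. Spi1, which encodes PU.1, differed by -0.22 (95% interval -0.38 to -0.05, limma adjusted p = 0.0965) and was named after its value was seen, because its motif is shown above. The count of risen factors was 1 in the fits lacking PBS replicate 1 or 2 or Con A replicate 2 or 3, and the count of fallen ones was 5 without PBS replicate 3.

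Of 22 other granule cargo and membrane genes measured out of 24, 1 rose and 4 fell, with a median of -0.07. Cst7, which encodes cystatin F, an inhibitor of granule cathepsins and of the protease-activating cathepsin C, rose by 1.85, from 8.69 ± 0.18 to 10.54 ± 0.08 (limma adjusted p = 0.000469). The lysosomal hydrolase genes Hexa, Gusb, Dpp7 and Ctsd fell by 0.83, 0.75, 0.62 and 0.52. Of 18 genes of granule release measured out of 20, such as the Rab27 and syntaxin genes, 0 passed by limma (2 at an unadjusted p under 0.05). The largest differences there were -0.26 for Unc13d and 0.26 for Sytl4.

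Of 23 granulocyte surface and cytosolic genes measured out of 28, 5 rose and 1 fell, with a median of 0.14 (0.07 and 0.066 in the fits lacking PBS replicates 2 and 3). Il1r2, the decoy receptor for interleukin-1, rose by 1.02 (limma adjusted p = 0.0146), Clec4e, the receptor Mincle, by 0.69 and the lectin receptor gene Clec5a by 0.56. Hdc, whose enzyme makes histamine, rose by 0.56, and Ptafr, the receptor for platelet-activating factor, rose by 0.49. Ceacam1, an inhibitory adhesion receptor, fell by 0.60 (limma adjusted p = 0.00536). With 1 array left out, 2 genes rose without PBS replicate 1, and 2 and 3 rose in the fits lacking Con A replicates 2 and 3.

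Markers of other cells in the gate moved between the groups, and their part in the results above was not tested. Over all genes, 4.59% rose and 7.22% fell. Of 12 measured monocytic markers out of 13, 6 fell and 0 rose, and their mean level ran from 10.80 to 11.21 after PBS and from 9.56 to 10.20 after Con A. The largest differences were -2.16 for F13a1, -2.01 for Ccr2 and -1.81 for Cx3cr1. None of the 12 lay below the median gene after PBS. Eosinophil, basophil and mast cell markers gave 6 higher calls and 0 lower calls among 13 genes, with mean levels from 8.01 to 8.57 and from 8.59 to 9.47. Epx, Prg2 and Gata2 rose by 1.13, 1.06 and 0.85. With 1 array left out, 0 of these 13 passed by limma without PBS replicate 1, and 1 passed without PBS replicate 3. The fits lacking Con A replicates 1, 2 and 3 gave 1, 8 and 1. Kupffer cells, the resident macrophages of the liver, were covered by 12 markers, of which 10 had positive and 2 negative differences. Their median was 0.455 (0.819 and 0.094 in the fits lacking Con A replicates 1 and 2). The 1 that passed was the iron exporter gene Slc40a1, which ran against most of the list at -1.19. The list had mean levels from 8.35 to 8.70 after PBS and from 8.26 to 9.76 after Con A. Among 11 measured T, NK and B cell markers, Ms4a1 fell by 0.45. That call ended without PBS replicate 1 or 2 and without either of the first 2 Con A arrays, and 3 fell without PBS replicate 3. Among 5 measured platelet and erythroid markers, Itga2b rose by 0.73, and 3 rose without Con A replicate 1. All 5 differences were positive, with a median of 1.00 (0.577 in the fit lacking Con A replicate 2). The mean level of these 5 ran from 6.77 to 7.36 after PBS and from 7.02 to 8.81 after Con A.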

How the data were processed

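RNA of 6 samples was amplified with a whole-transcriptome kit, labelled with biotin and hybridised to Affymetrix arrays, per the labels' protocols. The authors deposited log2 expression values, and RMA and Partek are named without versions in the submitters' processing notes. RMA removes background, equalises the distribution of the arrays and summarises probes. Array signals can be compressed at both ends of the scale, which was not tested here. Array medians lay between 7.05 and 7.08. Of 35556 rows, 21789 had 1 gene symbol in the platform annotation, and the row with the highest mean stood for a gene. Each member had 1 row.

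Con A and PBS were compared by the moderated two-sided test of limma 3.58.1, run under R 4.3.3 with lmFit, eBayes and 95% intervals, on the values as deposited, over 19938 genes. The fit was tried on simulated data with independent noise for each gene and array. Such data lack deviations shared by the genes of an array, so the trial lends no support to single calls. Members and lists were chosen with earlier results of these data known. Per-array values are given for members that passed, members without overlap that differed by 0.5 or more, Ly6g, S100a8, S100a9, Mpo, Elane, Ltf and Camp, and some others beside them. Of each further list, up to 3 leading genes that passed are named, or 2 where none did, and also those behind a count of 5 or fewer. The number of arrays limits the precision. Alternatives covered the choice of row, a level filter, quantile normalisation, centring, trend and robust moderation, array weights, the unmoderated test, the replicate block and each array left out. Promoter letters came from RefSeq tables of build GRCm38.p6.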

Additional observations from a re-analysis of the deposited data

How the results depend on the processing

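Of the 35 genes, 21 kept the sign of their difference in all alternatives run and 14 changed it in at least 1. In all, 26 genes passed in no fit, and 5 that missed the threshold passed in at least 1 alternative. The level filter left out 3 members (Mpo, Bpi and Prss57). The count of members that rose was 0 with arrays centred on their medians, 2 with array weights and 0 with the unmoderated test, against 1, and it ranged from 0 to 3 with 1 array left out. The count that fell was 5 with array weights and 1 with the unmoderated test, against 3, and it ranged from 2 to 5 with 1 array left out. The replicate block (replicate number as a term) gave 5 that fell. Over all genes 915 rose and 1440 fell, and the unmoderated test gave 290 and 381. With 1 array left out these counts ranged from 458 to 1114 and from 682 to 1651.

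The labels do not say whether replicate numbers pair the samples. Deviations of same-numbered arrays correlated at 0.228, -0.17 and 0.555, and those of differently numbered arrays at -0.543 to 0.538. With so few arrays, these values cannot decide whether the samples were paired.

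Lcn2 changed sign with quantile normalization (-0.041), centring (-0.016) and array weights (-0.004), and Retnlg with quantile normalization (0.012). With 1 array left out, risen factors ranged from 1 to 3, fallen factors from 2 to 5 and risen receptor genes from 2 to 7. Differences that changed sign ranged from -0.283 to 0.023 for Cd63, -0.057 to 0.031 for Ltf, -0.015 to 0.01 for Lcn2, -0.03 to 0.26 for Camp, -0.018 to 0.044 for Ngp, -0.04 to 0.025 for Mmp8 and -0.095 to 0.06 for Cd177. They ranged from -0.065 to 0.197 for Itgb2l, -0.102 to 0.512 for Fcnb, -0.012 to 0.199 for Mmp25, -0.007 to 0.058 for S100a9, -0.036 to 0.009 for Retnlg, -0.295 to 0.131 for Stfa3 and -0.056 to 0.096 for Anxa1. The cause was not tested. Admitting rows with several symbols was not run, since no such row lists a member.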
